A study of Mus musculus with 12 samples.

Results

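The genes described here are 42 members of the DNA replication machinery that are known as targets of the E2F transcription factors. The rule that picks them uses gene names and no signal, although the list was drawn up with earlier results of these data known. They are 42 of 34607 gene names on the array, measured by 56 probes. By role, 9 members act in origin licensing, 6 in helicase activation, 6 as polymerase or primase subunits, 7 at the clamp, its loader and the lagging strand, 5 in nucleotide supply, 5 in chromatin copying, 2 in fork protection and 2 as E-type cyclins. Of the 42 members, 36 had a probe well above background on at least 3 of the 4 arrays of some group and were tested. The remaining 6, Orc1, Cdc6, Pola2, Dscc1, Clspn and Ccne2, were well above background on 0 of 12 arrays and were not tested.

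The livers came from 4 mice labelled E2f1-/-, 4 labelled E2f2-/- and 4 wild-type mice of 129/Sv x C57BL/6 background. Every mouse had received diethylnitrosamine (DEN), a liver carcinogen, at 25 mg/kg on postnatal day 14, and was fed, after weaning at 1 month, a high-fat food in which fat gave 60% of the calories, for 32 weeks. They were killed at 9 months after a fast of 4 hours, and the study concerns the liver cancer that this treatment induces. All 3 groups share the carcinogen and the diet, so no untreated liver is in the comparison. The source field of the E2f1-/- samples names vehicle and chow, against their titles, descriptions, characteristics and protocol, and this conflict applies to each E2f1-/- value. Sex, the deleted part of either gene, the background of the knockout lines and the tumour content of the sampled liver are not given in these sources.

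E2F factors bind the promoters of genes needed for S phase, in which DNA is copied. E2F1 is best known as an activator, and the retinoblastoma protein restrains both E2F1 and E2F2 until the cell commits to dividing. Most hepatocytes of an adult liver are quiescent, and replication genes come on when they re-enter the cycle, as after partial hepatectomy or in tumours. Replication starts when the origin recognition complex, Cdc6 and Cdt1 load the ring-shaped Mcm2 to Mcm7 helicase. Cdc45 and the GINS complex then activate that helicase, after which polymerases, the PCNA clamp and ligase copy the strands.

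Values below are log2 signals minus the 75th percentile of the same array, so 0 marks that percentile and a difference of 1 is a doubling. That percentile lay at an intensity of 119.2 to 238.3, and 44.8% to 54.5% of probes were well above background on an array. Each of 4 slides carried 1 array of each group. All mice of a group had the same position within a row of their slides, so that position and group cannot be told apart. The E2f1 probe read -0.72, -0.91, -0.64 and -0.79 in E2f1-/- livers and -0.27, 0.13, 0.45 and -0.08 in wild-type livers, a fall of 0.82 ± 0.19 on the log2 scale (SE, limma adjusted p = 0.0114). The E2f2 probe read 0.19, 0.72, 0.73 and 0.53 in livers labelled E2f2-/- and 0.48, 1.04, 0.97 and 0.71 in wild-type livers (difference -0.26 ± 0.21, limma adjusted p = 0.408). It does not bear out that label, but whether either probe lies in the deleted part of its gene is not known here, so these livers are called E2f2-labelled. The same E2f2 probe fell by 1.5 ± 0.21 in E2f1-/- livers (limma adjusted p = 0.00141). All 12 hepatocyte markers examined were measured, and their summed signal, in units of the 75th percentile, was 11280 to 15680 in E2f1-/- livers, 10180 to 15170 in E2f2-labelled livers and 9274 to 13570 in wild-type livers.

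Against wild type, a minority of the replication genes changed, and those that did were mostly lower. A gene is called where the limma p, adjusted over all 20576 tested genes, is under 0.05. In E2f1-/- livers 5 of 36 members were lower, against 7.41% of all tested genes, and 1 was higher, against 13.2% of all tested genes. In E2f2-labelled livers 7 of 36 were lower, against 7.58% of all, and 1 was higher, against 14.6% of all. The median member differed by -0.23 in E2f1-/- livers and by -0.23 in E2f2-labelled livers, where the median tested gene differed by 0.13 and by 0.18. Both comparisons use the same 4 wild-type livers. Of all genes called, 64% were higher in E2f1-/- livers and 65.8% in E2f2-labelled livers. With quantile normalization these shares were 50.4% and 49.5%, the median tested gene differed by 0.03 and 0.07, and the members' counts stayed at 5 lower and 1 higher in E2f1-/- livers and 7 lower and 1 higher in E2f2-labelled livers. Within single slides the members' median ranged over -0.32 to -0.12 for E2f1-/- and -0.41 to -0.21 for E2f2-labelled livers, below 0 on all 4 slides in each. With the slide as a block, 6 members were lower and 3 higher in E2f1-/- livers, where 8.67% of all tested genes were lower and 18% higher. With it, 10 were lower and 2 higher in E2f2-labelled livers, where 8.78% of all were lower and 21.8% higher. In bulk liver, fewer cells of a type and less RNA per cell cannot be told apart.

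**Figure D1:**
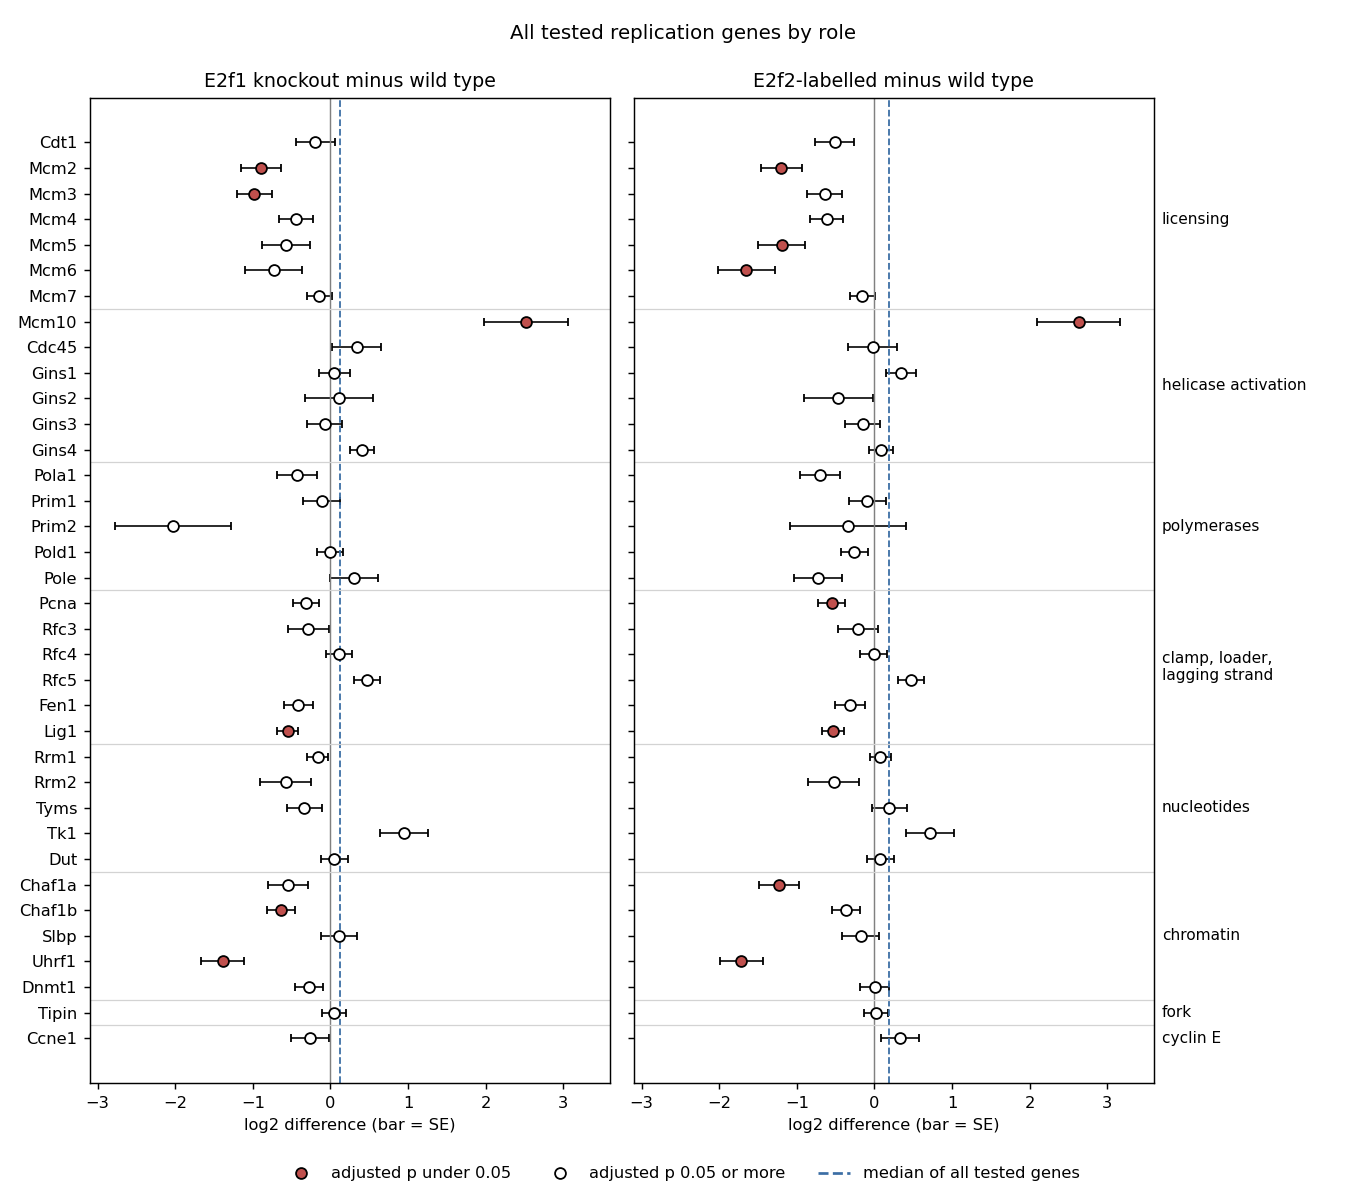
Log2 difference from wild type (horizontal axis, bars are SE from the limma fit) for the 36 tested replication genes, grouped by role, in E2f1-/- livers (left) and E2f2-labelled livers (right). Filled points passed an adjusted p of 0.05, and the dashed line is the median of all tested genes. Every tested licensing member, by its brightest probe, lies left of 0 in both panels.

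In origin licensing, all 7 tested members, each by its brightest probe, had a difference below 0 in each comparison. With the same probes this also held under each of the 4 other scalings tried. By its second probe, Mcm3 differed by 0.04 in E2f1-/- livers. Of the 7 licensing members, 2 were called lower in E2f1-/- livers, against 7.41% of all tested genes. In E2f2-labelled livers 3 were, against 7.58% of all. The role's median difference was -0.57 and -0.64 in the 2 comparisons. Mcm2, a subunit of the loaded helicase (probe at chr6:88833619-88833678, mm9), read -1.35, -1.52, -2.71 and -2.27 in E2f1-/- livers. It read -2.32, -2.38, -2.26 and -2.12 in E2f2-labelled livers and -0.94, -0.87, -1.28 and -1.18 in wild-type livers. All 8 E2f1-/- and E2f2-labelled livers (the knockout-labelled livers) were below every wild-type liver, and the 4 E2f2-labelled livers lay close together. The fall was 0.89 ± 0.26 (1.86-fold lower, adjusted p = 0.0312) in E2f1-/- livers and 1.20 ± 0.26 (2.30-fold lower, adjusted p = 0.00835) in E2f2-labelled livers. The E2f1-/- call was lost in 7 of 23 alternatives, among them leaving out E2f1-/- mouse 3 or 4 or wild-type mouse 1 or 2 (adjusted p up to 0.087). Normexp background correction models the background in place of the scanner's subtraction. Here it also added an offset of 50 intensity units to every signal, which by itself shrinks log2 differences of dim probes. The effect of the offset was not separated from that of the background model. With this correction the Mcm2 differences shrank to -0.39 in E2f1-/- livers (adjusted p = 0.0752) and -0.45 in E2f2-labelled livers (adjusted p = 0.0433).

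Mcm6, another subunit (chr1:130228178-130228237, mm9), read 1.35, 0.77, -0.41 and -0.32 in E2f1-/- livers. It read -0.04, -0.47, -0.72 and -1.05 in E2f2-labelled livers and 0.85, 1.38, 1.26 and 0.82 in wild-type livers. All E2f2-labelled livers were below all wild-type livers, while the E2f1-/- livers split, with mice 1 and 2 near the wild-type range and mice 3 and 4 below it. Mcm6 was 3.14-fold lower in E2f2-labelled livers (-1.65 ± 0.37, adjusted p = 0.00908) and differed by -0.73 ± 0.37 in E2f1-/- livers (adjusted p = 0.186). Mcm5 (chr8:77651350-77651410, mm9) showed the same split, at -0.23, -0.77, -1.69 and -1.60 in E2f1-/- livers. Its levels were -1.34, -2.0, -1.84 and -1.60 in E2f2-labelled livers and -0.83, -0.21, -0.25 and -0.71 in wild-type livers. Mcm5 was 2.29-fold lower in E2f2-labelled livers (-1.20 ± 0.31, adjusted p = 0.0171), without overlap, and differed by -0.57 ± 0.31 in E2f1-/- livers (adjusted p = 0.216). That call ended without wild-type mouse 2 (adjusted p = 0.0529) or with normexp background correction (-0.54, adjusted p = 0.0504).

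Mcm4, Mcm7 and Cdt1, the loading factor, passed in neither comparison. Mcm4 differed by -0.44 ± 0.21 in E2f1-/- livers (adjusted p = 0.17) and by -0.62 ± 0.21 in E2f2-labelled livers (adjusted p = 0.0575, or 0.0224 with the slide as a block). Mcm7 stayed between 1.92 and 2.42 in all 8 knockout-labelled livers and between 2.15 and 2.51 in wild-type livers. Cdt1 averaged 0.87 ± 0.45 in E2f1-/- livers, 0.55 ± 0.43 in E2f2-labelled livers and 1.06 ± 0.22 in wild-type livers (SD, n = 4 each).

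**Figure D2:**
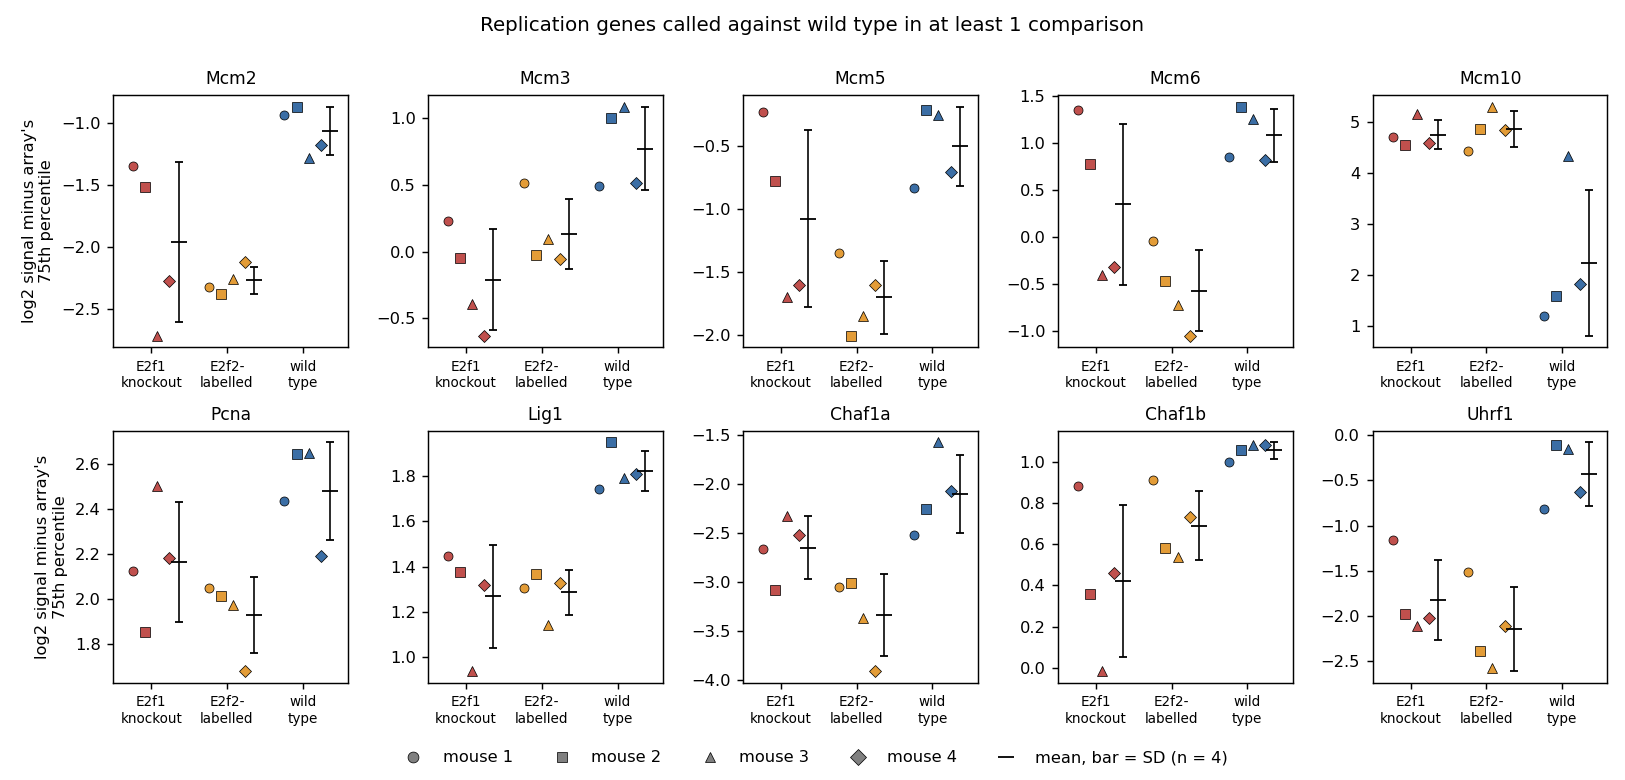
Signal of the 10 members called in at least 1 comparison (vertical axes, log2 signal minus the array's 75th percentile, scaled per panel) in each liver, with mean and SD of 4 mice. Mouse numbers mark the shared slide, not shared animals. Mcm2 and Uhrf1 are low in all 8 knockout-labelled livers, E2f1-/- mouse 1 lies nearer to wild type for Mcm5, Mcm6 and Uhrf1, and wild-type mouse 3 lies near the knockout-labelled livers for Mcm10.

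Mcm3 is the licensing member whose result depended on the probe. Its brighter probe, used for the gene (chr1:20793136-20793195, mm9), read 0.23, -0.05, -0.40 and -0.63 in E2f1-/- livers. It read 0.51, -0.03, 0.10 and -0.06 in E2f2-labelled livers and 0.49, 1.00, 1.08 and 0.52 in wild-type livers. By this probe Mcm3 was lower in E2f1-/- livers (-0.98 ± 0.22, adjusted p = 0.0106), below every wild-type liver, and differed by -0.64 ± 0.22 in E2f2-labelled livers (adjusted p = 0.0575, or 0.0426 with the slide as a block). The second probe (chr1:20793119-20793178, mm9) read 1.13, 0.69, 0.39 and 0.17 in E2f1-/- livers. It read -0.23, -0.65, -0.86 and -0.98 in E2f2-labelled livers and -0.05, 0.27, 1.15 and 0.85 in wild-type livers. By this probe the E2f2-labelled livers were the low ones, below every wild-type liver (-1.24 ± 0.29, adjusted p = 0.0115), and the E2f1-/- livers overlapped wild type (0.04 ± 0.29, adjusted p = 0.942). These p-values of the second probe come from the limma fit over all 28442 tested probes.

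The 2 Mcm3 probes share 43 bases and differ at 1 base within them. The difference is A31G, the first probe's base, its position from that probe's 5′ end and the second probe's base, at chr1:20793165 (mm9), and 25 bases around it are shown because they are where the probes part, with the differing base in capitals.
Mcm3 first probe: agctttctttgcAattagactagta
Mcm3 second probe: agctttctttgcGattagactagta
The log2 ratio of the second probe to the first has no meaning as a level, but it can be compared between livers. It was 0.90, 0.73, 0.79 and 0.80 in E2f1-/- livers, -0.74, -0.63, -0.96 and -0.92 in E2f2-labelled livers and -0.54, -0.73, 0.07 and 0.34 in wild-type livers. The ratio varied little within each knockout-labelled group. It was high in all E2f1-/- livers and low in all E2f2-labelled livers, wild-type mouse 2 lay within the E2f2-labelled range with mouse 1 just above it, and wild-type mice 3 and 4 lay between the 2 knockout-labelled groups. Its mean in E2f1-/- livers was above wild type by 1.02, its mean in E2f2-labelled livers differed from wild type by -0.59, and E2f2-labelled minus E2f1-/- livers came to -1.62. The ratio was chosen after the values had been seen, so these differences are given without a test. Whether the mice differ in sequence at this base was not tested. With the mean of both probes Mcm3 differed by -0.47 in E2f1-/- livers (adjusted p = 0.187) and by -0.94 in E2f2-labelled livers (adjusted p = 0.016).

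**Figure D3:**
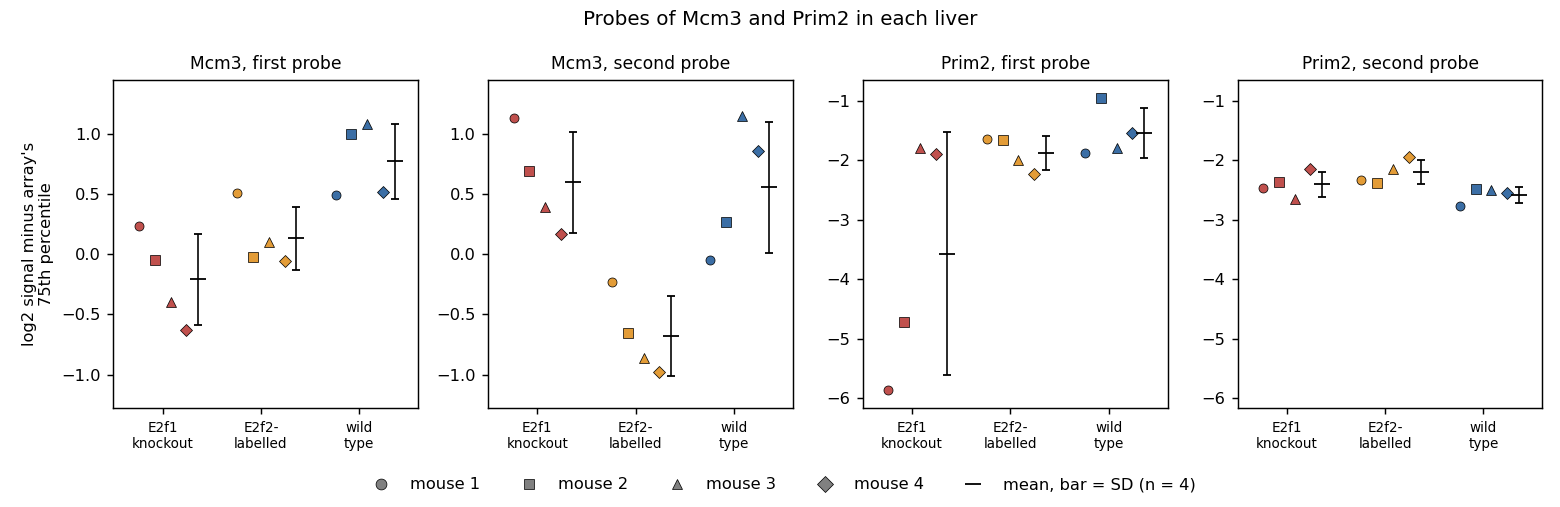
Signal of the 2 tested probes of Mcm3 (left pair) and of Prim2 (right pair) in each liver, as log2 signal minus the array's 75th percentile, with mean and SD of 4 mice. The first Mcm3 probe is lowest in E2f1-/- livers and the second in E2f2-labelled livers. The first Prim2 probe is near -5 or below in E2f1-/- mice 1 and 2 only.

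Mcm10 was the single member called higher, in both comparisons. It helps to activate the loaded helicase, and was measured by 1 probe (chr2:4911785-4911844, mm9), which read 4.71, 4.55, 5.17 and 4.58 in E2f1-/- livers. It read 4.43, 4.86, 5.30 and 4.83 in E2f2-labelled livers and 1.18, 1.58, 4.34 and 1.82 in wild-type livers. The 8 knockout-labelled livers lay between 4.43 and 5.30, wild-type mouse 3 was just under them at 4.34, and the other 3 wild-type mice were at 1.18 to 1.82 with no liver in between. The rise was 2.52 ± 0.54 in E2f1-/- livers (5.75-fold, adjusted p = 0.00809) and 2.63 ± 0.54 in E2f2-labelled livers (6.19-fold, adjusted p = 0.00642). Without wild-type mouse 3 these were 3.23 and 3.33. Whether the mice differ in sequence under this probe was not tested.

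The other helicase activators were not called in either comparison. Cdc45 averaged -2.93 ± 0.26 in E2f1-/- livers, -3.29 ± 0.55 in E2f2-labelled livers and -3.27 ± 0.58 in wild-type livers (SD, n = 4 each). It and Gins2 were well above background on 7 of 12 arrays and entered the test through 1 group only. The 4 GINS subunits differed by -0.07 to 0.41 in E2f1-/- livers and by -0.46 to 0.35 in E2f2-labelled livers. Gins4 had the highest of these E2f1-/- differences, at 0.41 ± 0.15 (adjusted p = 0.0814).

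None of the 5 tested polymerase and primase subunits was called by limma in either comparison. At an unadjusted p under 0.05 there were 1 in E2f1-/- livers (Prim2) and 2 in E2f2-labelled livers (Pola1 and Pole). Over all 20576 tested genes, 6947 and 7479 had an unadjusted p under 0.05 in these 2 comparisons. Pola1, the catalytic subunit of polymerase alpha, read -0.96, -1.57, -1.0 and -1.97 in E2f1-/- livers, -1.46, -1.60, -1.53 and -2.0 in E2f2-labelled livers and -0.60, -0.61, -1.22 and -1.36 in wild-type livers. The E2f2-labelled livers were all below wild type (-0.70 ± 0.26, adjusted p = 0.0727, or 0.0203 with the slide as a block). Prim1, the small primase subunit and the brightest of the role, differed by -0.12 ± 0.24 in E2f1-/- livers (adjusted p = 0.788) and by -0.09 ± 0.24 in E2f2-labelled livers (adjusted p = 0.813). Pold1 and Pole, the catalytic subunits of polymerases delta and epsilon, differed by -0.01 ± 0.17 and 0.31 ± 0.31 in E2f1-/- livers and by -0.26 ± 0.17 and -0.72 ± 0.31 in E2f2-labelled livers.

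Prim2, the large primase subunit, was singled out after its values were seen. Its brighter probe (chr1:33510733-33510792, mm9) read -5.87, -4.72, -1.79 and -1.90 in E2f1-/- livers, -1.65, -1.65, -1.99 and -2.23 in E2f2-labelled livers and -1.88, -0.95, -1.79 and -1.54 in wild-type livers. E2f1-/- mice 1 and 2, whose arrays were the only 2 on which this probe was not well above background, stood far below the other 10 livers, which lay close together. The second probe (chr1:33535912-33535971, mm9) showed no such gap, at -2.46, -2.37, -2.65 and -2.15 in E2f1-/- livers, -2.32, -2.37, -2.14 and -1.94 in E2f2-labelled livers and -2.77, -2.48, -2.50 and -2.55 in wild-type livers. The E2f1-/- difference was -2.03 ± 0.75 by the first probe (adjusted p = 0.0738) and 0.17 ± 0.15 by the second (adjusted p = 0.491), and the first value includes those 2 arrays. Whether the mice differ in sequence under the first probe was not tested. Of 7 members with several tested probes, the sign in E2f1-/- livers also differed between probes for Ccne1 and Rfc4, neither of them called.

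At the clamp and the lagging strand, 1 of 6 tested members was called lower in E2f1-/- livers, against 7.41% of all tested genes. In E2f2-labelled livers 2 were, against 7.58% of all. Lig1, the ligase that joins Okazaki fragments (chr7:13896609-13896667, mm9), read 1.44, 1.38, 0.94 and 1.32 in E2f1-/- livers. It read 1.31, 1.37, 1.14 and 1.33 in E2f2-labelled livers and 1.74, 1.95, 1.79 and 1.81 in wild-type livers. All 8 knockout-labelled livers were below wild type, and the fall was 0.55 ± 0.14 in E2f1-/- livers (1.47-fold lower, adjusted p = 0.017) and 0.54 ± 0.14 in E2f2-labelled livers (1.45-fold lower, adjusted p = 0.0186). Each Lig1 call was lost in 3 of 23 alternatives, including leaving out wild-type mouse 2 in both comparisons and E2f2-labelled mouse 3 in its own (adjusted p up to 0.0559 and 0.0594).

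Pcna, the sliding clamp (chr2:132075022-132075054, mm9), read 2.12, 1.85, 2.50 and 2.18 in E2f1-/- livers, 2.05, 2.01, 1.97 and 1.68 in E2f2-labelled livers and 2.44, 2.64, 2.65 and 2.19 in wild-type livers. It was 1.47-fold lower in E2f2-labelled livers (-0.55 ± 0.17, adjusted p = 0.0383) and differed by -0.32 ± 0.17 in E2f1-/- livers (adjusted p = 0.222). The Pcna call is a marginal one, lost in 11 of 23 alternatives and when any E2f2-labelled mouse or any of wild-type mice 1, 2 and 3 was left out (adjusted p up to 0.105). Fen1, the flap nuclease, differed by -0.41 ± 0.19 in E2f1-/- livers (adjusted p = 0.153, or 0.0405 with slide as the block) and by -0.31 ± 0.19 in E2f2-labelled livers (adjusted p = 0.264).

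The clamp loader, which opens the clamp and places it on DNA, is built of Rfc subunits. Rfc5 read 2.12, 1.96, 2.14 and 2.02 in E2f1-/- livers, 1.80, 2.20, 2.07 and 2.15 in E2f2-labelled livers and 1.17, 1.53, 1.85 and 1.78 in wild-type livers. Its difference was 0.48 ± 0.17 in E2f1-/- livers (adjusted p = 0.0619) and 0.47 ± 0.17 in E2f2-labelled livers (adjusted p = 0.0607). Both passed with the slide as a block (adjusted p = 0.0409 and 0.0387). Rfc3 and Rfc4 differed by -0.29 ± 0.26 and 0.11 ± 0.17 in E2f1-/- livers and by -0.21 ± 0.26 and -0.01 ± 0.17 in E2f2-labelled livers. A second tested Rfc4 probe differed by -0.19 and -0.27 in the 2 comparisons.

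Tk1 alone of the 5 nucleotide supply genes had an unadjusted p under 0.05, in both comparisons. Over all 20576 tested genes, 6947 and 7479 had one. None of the 5 supply genes was called by limma in either comparison. Tk1, the salvage kinase for thymidine and the brightest of them (chr11:117676845-117676904, mm9), read 2.48, 2.66, 2.25 and 2.67 in E2f1-/- livers, 2.12, 2.49, 2.35 and 2.17 in E2f2-labelled livers and 0.56, 1.30, 2.32 and 2.09 in wild-type livers. Wild-type mice 1 and 2 were low, mouse 4 was just below every knockout-labelled liver, and mouse 3 lay among them. Tk1 differed by 0.95 ± 0.31 in E2f1-/- livers (adjusted p = 0.0507, or 0.0468 with slide as the block) and by 0.72 ± 0.31 in E2f2-labelled livers (adjusted p = 0.121). Its second probe had the same 2 low wild-type mice and differed by 0.97 ± 0.26 in E2f1-/- livers (adjusted p = 0.0212 over all probes). The ribonucleotide reductase subunits Rrm1 and Rrm2 differed by -0.16 ± 0.13 and -0.57 ± 0.33 in E2f1-/- livers and by 0.07 ± 0.13 and -0.52 ± 0.33 in E2f2-labelled livers. Tyms, which makes thymidylate, and Dut, which removes dUTP, differed by -0.34 ± 0.22 and 0.05 ± 0.17 in E2f1-/- livers and by 0.19 ± 0.22 and 0.08 ± 0.17 in E2f2-labelled livers.

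Among chromatin members, Uhrf1 had the lowest difference of any called member in both comparisons. It recognises hemimethylated DNA behind the fork and brings in the maintenance methyltransferase Dnmt1. Its tested probe (chr17:56462770-56462829, mm9) read -1.16, -1.97, -2.11 and -2.02 in E2f1-/- livers, -1.51, -2.38, -2.57 and -2.11 in E2f2-labelled livers and -0.82, -0.11, -0.16 and -0.63 in wild-type livers. No knockout-labelled liver reached the wild-type range, and mouse 1 was the highest of each knockout-labelled group. Uhrf1 was 2.61-fold lower in E2f1-/- livers (-1.39 ± 0.28, adjusted p = 0.00613) and 3.28-fold lower in E2f2-labelled livers (-1.71 ± 0.28, adjusted p = 0.00217), and both calls were kept in all 23 alternatives. With normexp background correction its differences shrank to -0.64 in E2f1-/- livers (adjusted p = 0.00868) and -0.72 in E2f2-labelled livers (adjusted p = 0.00495). Dnmt1 itself differed by -0.28 ± 0.18 in E2f1-/- livers (adjusted p = 0.324) and by 0.00 ± 0.18 in E2f2-labelled livers (adjusted p = 0.991).

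The 2 large subunits of CAF-1, the chaperone that places histones on new DNA, were each called in 1 comparison. Chaf1a (chr17:56206969-56207028, mm9) read -2.66, -3.08, -2.33 and -2.52 in E2f1-/- livers, -3.05, -3.01, -3.37 and -3.91 in E2f2-labelled livers and -2.52, -2.25, -1.57 and -2.07 in wild-type livers. It was 2.35-fold lower in E2f2-labelled livers (-1.23 ± 0.25, adjusted p = 0.00667), without overlap, and differed by -0.54 ± 0.25 in E2f1-/- livers (adjusted p = 0.155). Chaf1a is a dim gene, well above background on 10 of 12 arrays, and normexp background correction moved its E2f2-labelled difference to -0.12 (adjusted p = 0.527). Chaf1b (chr16:93906219-93906278, mm9) read 0.88, 0.36, -0.02 and 0.46 in E2f1-/- livers, 0.91, 0.58, 0.54 and 0.73 in E2f2-labelled livers and 1.00, 1.06, 1.08 and 1.08 in wild-type livers. By this probe all knockout-labelled livers were below the tightly grouped wild-type livers. Chaf1b was 1.55-fold lower in E2f1-/- livers (-0.63 ± 0.18, adjusted p = 0.0261) and differed by -0.36 ± 0.18 in E2f2-labelled livers (adjusted p = 0.161). The E2f1-/- call was lost in 7 of 23 alternatives, among them leaving out E2f1-/- mouse 2, 3 or 4 or wild-type mouse 2 or 4 (adjusted p up to 0.0687). A second tested Chaf1b probe read 0.31, -0.10, -0.72 and -0.33 in E2f1-/- livers, 0.14, 0.04, -0.14 and -0.38 in E2f2-labelled livers and 0.30, 0.49, 0.43 and 0.72 in wild-type livers. By it E2f1-/- mouse 1 overlapped wild type, and the differences were -0.69 in E2f1-/- livers (adjusted p = 0.039 over all probes) and -0.57 in E2f2-labelled livers (adjusted p = 0.0754). Whether either subunit responded differently in the 2 knockout-labelled groups was tested and not called (E2f2-labelled minus E2f1-/-: Chaf1a -0.69 ± 0.25, adjusted p = 0.292, and Chaf1b 0.27 ± 0.18, adjusted p = 0.658). Slbp, which binds histone mRNAs, differed by 0.11 ± 0.23 in E2f1-/- livers and by -0.18 ± 0.23 in E2f2-labelled livers.

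Tipin, of the fork protection complex, averaged 0.86 ± 0.16 in E2f1-/- livers, 0.83 ± 0.20 in E2f2-labelled livers and 0.81 ± 0.21 in wild-type livers (SD, n = 4 each). Ccne1, cyclin E1, which drives entry into S phase, averaged 0.50 ± 0.25 in E2f1-/- livers, 1.08 ± 0.32 in E2f2-labelled livers and 0.76 ± 0.47 in wild-type livers (SD, n = 4 each). Neither was called.

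The 2 knockout-labelled groups were also set directly against each other. For E2f2-labelled minus E2f1-/- livers, limma called 0 of 36 members, against 0.914% of all tested genes called higher and 0.724% called lower. At an unadjusted p under 0.05 there were 6 members, and 2363 of all 20576 tested genes. The count of called members was also 0 in all 23 alternatives. Every E2f2-labelled liver was below every E2f1-/- liver for Gins4 and Pole, neither of them called. The share of all tested genes separated in this way was not counted, so this is a description only. Gins4 read 0.77 to 0.88 in E2f2-labelled livers and 0.90 to 1.39 in E2f1-/- livers (adjusted p = 0.458). Pole read -1.64 to -1.13 in E2f2-labelled livers and -1.0 to 0.38 in E2f1-/- livers (adjusted p = 0.161). The median member differed by -0.05, and single members by -1.03 for Pole to 1.69 for Prim2, whose value includes the 2 E2f1-/- arrays not well above background and was 0.21 by the second probe. Mcm6 differed by -0.92 ± 0.37 (adjusted p = 0.332) and Uhrf1 by -0.33 ± 0.28 (adjusted p = 0.772), so the contrast between calls in the 2 comparisons is not shown to be a difference between the groups. With its second probe in place of the first, Mcm3 did differ (-1.28, adjusted p = 0.0487).

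The promoters of the called members are shown because the list is one of E2F targets. RefSeq promoter windows (GRCm38, 250 bases before to 50 after the start) were at hand for 33 of the 42 members. The letters of the E2F motif, searched on both strands, came in 4 forms. The first was TTCCCGC, the second was TTGGCGC, the third was TTCGCGC and the last was TTGCCGC, and matches to the second and to the reverse of the third can overlap. A window with at least 1 match was held by 22 of 33 members (66.7%), 21 of 42 other replication genes (50%), 5 of 27 mitosis genes (18.5%) and 10.9% of all 27025 genes. With a further T in front of each form the shares were 45.5%, 26.2%, 7.41% and 2.6%. The mitosis promoters held the CHR letters, TTTGAA or else TTTAAA, in 77.8%, against 30.3% of members and 30.6% of all genes, and CCAAT in 70.4%, against 60.6% of members and 41.1% of all genes. Below are the 250 bases before the start of 6 called members, 5′ to 3′ on the gene's strand, with E2F matches in capitals.
Uhrf1, chr17:56303087-56303336, plus strand: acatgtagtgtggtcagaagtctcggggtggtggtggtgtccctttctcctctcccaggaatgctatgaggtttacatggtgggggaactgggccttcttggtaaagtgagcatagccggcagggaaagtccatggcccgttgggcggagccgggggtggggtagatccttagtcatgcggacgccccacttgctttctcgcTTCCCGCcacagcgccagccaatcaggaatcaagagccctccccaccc
Mcm6, chr1:128359706-128359955, minus strand: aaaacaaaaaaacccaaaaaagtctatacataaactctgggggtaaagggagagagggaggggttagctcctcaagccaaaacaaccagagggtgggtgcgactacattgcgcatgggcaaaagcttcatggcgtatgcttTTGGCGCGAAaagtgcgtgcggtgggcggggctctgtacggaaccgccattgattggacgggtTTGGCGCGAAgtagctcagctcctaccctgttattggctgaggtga
Chaf1a, chr17:56040166-56040415, plus strand: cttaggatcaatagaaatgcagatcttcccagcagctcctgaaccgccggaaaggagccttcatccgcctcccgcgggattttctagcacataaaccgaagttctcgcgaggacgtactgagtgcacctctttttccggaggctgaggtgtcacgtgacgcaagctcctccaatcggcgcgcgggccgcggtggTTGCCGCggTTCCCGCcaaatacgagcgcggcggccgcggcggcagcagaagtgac
Mcm2, chr6:88898781-88899030, minus strand: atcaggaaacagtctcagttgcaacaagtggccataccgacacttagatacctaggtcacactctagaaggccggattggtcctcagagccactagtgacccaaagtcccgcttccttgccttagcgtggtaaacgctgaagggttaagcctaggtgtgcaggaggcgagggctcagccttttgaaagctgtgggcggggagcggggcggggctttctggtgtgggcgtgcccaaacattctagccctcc
Lig1, chr7:13276925-13277174, plus strand: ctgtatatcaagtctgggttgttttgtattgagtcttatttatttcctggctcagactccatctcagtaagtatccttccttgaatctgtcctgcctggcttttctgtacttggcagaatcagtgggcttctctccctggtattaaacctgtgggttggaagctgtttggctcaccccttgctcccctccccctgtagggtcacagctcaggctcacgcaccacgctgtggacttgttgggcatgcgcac
Mcm10, chr2:5012792-5013041, minus strand: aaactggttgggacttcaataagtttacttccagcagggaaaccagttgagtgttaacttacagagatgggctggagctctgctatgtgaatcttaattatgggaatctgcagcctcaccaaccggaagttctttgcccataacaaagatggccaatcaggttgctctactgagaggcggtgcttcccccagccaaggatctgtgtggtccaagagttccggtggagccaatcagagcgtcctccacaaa
Uhrf1 has 1 match, Chaf1a has 2 and Mcm6 has 4, in 2 overlapping pairs, with 1 more past the printed part. The stretches of Mcm2 and Mcm10 hold none, although Mcm2 was lower and Mcm10 higher in both comparisons. The Lig1 start printed is the first listed and holds none, while another listed start of Lig1 has 2. Of the remaining called members, Mcm3 and Mcm5 have 3 matches each, Chaf1b has 2 and Pcna has 0. A match is a run of letters and does not show binding in these livers.

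The members moved far less than genes of mitosis on the same arrays. Of 22 tested mitosis genes, 19 were lower in E2f1-/- livers, against 7.41% of all tested genes, and 18 in E2f2-labelled livers, against 7.58%. Their medians were -1.81 and -1.96, and 0 were higher. The mitosis list held 32 genes, 10 of them not tested, and was chosen with earlier results of these data known. Mki67, the proliferation marker, read 0.71, -0.41, -1.32 and -1.0 in E2f1-/- livers, 0.22, -0.99, -2.27 and -1.41 in E2f2-labelled livers and 1.15, 2.49, 2.14 and 1.54 in wild-type livers. The groups did not overlap, and Mki67 fell by 2.33 ± 0.54 in E2f1-/- livers (adjusted p = 0.0112) and by 2.94 ± 0.54 in E2f2-labelled livers (adjusted p = 0.00381). Top2a was not well above background on any knockout-labelled array and was at least 2.31-fold lower in E2f1-/- livers and at least 2.55-fold lower in E2f2-labelled livers (adjusted p = 0.000938 and 0.00017). Here the bound sets the wild-type mean against the lowest signal well above background on each dim array, or the probe's own where that was higher. Both Top2a calls were lost with normexp background correction (-0.29, adjusted p = 0.192, in E2f1-/- livers and -0.26, adjusted p = 0.213, in E2f2-labelled livers). Top2a, Bub1b and Nusap1 of this list passed the background filter through wild-type livers only. For such genes the filter favours a fall, so their calls are not support for one. The counts and medians of mitosis genes given here, per group and per liver, include Top2a, Bub1b and Nusap1. Neither was recomputed without them, so how much these genes add to the contrast with the members was not tested.

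**Figure D4:**
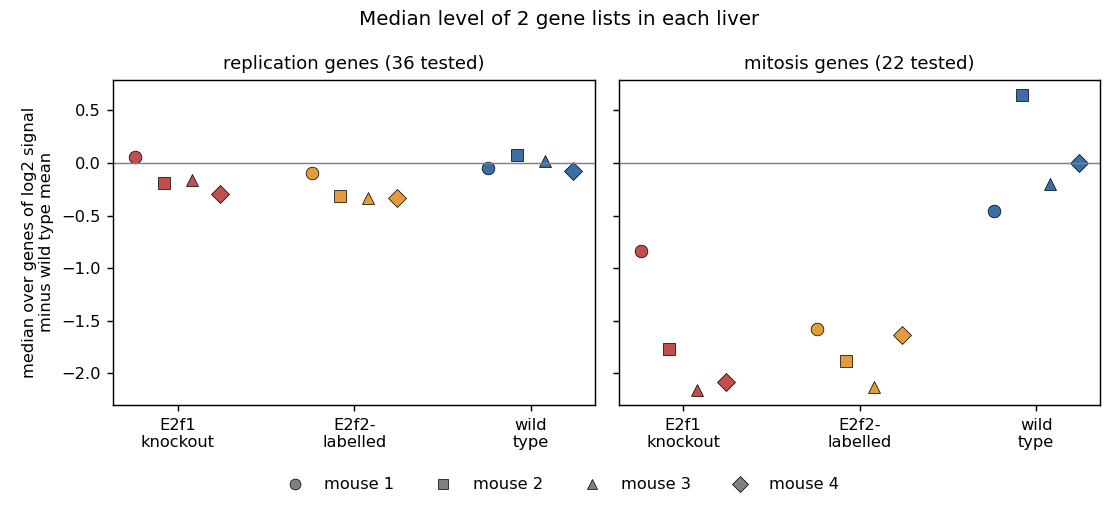
Median over genes of the log2 signal minus the wild-type mean, per liver (points), for the 36 tested replication genes (left) and the 22 tested mitosis genes (right). The replication medians span -0.34 to 0.05 in knockout-labelled livers, and the mitosis medians span -2.16 to -0.83, with E2f1-/- mouse 1 the highest of them in both panels. The mitosis medians include Top2a, Bub1b and Nusap1, which passed the background filter through wild-type livers only.

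Liver by liver, the members' median relative to the wild-type mean was 0.05, -0.19, -0.16 and -0.30 in E2f1-/- livers and -0.09, -0.31, -0.33 and -0.34 in E2f2-labelled livers. In wild-type livers it was -0.05, 0.07, 0.02 and -0.07. E2f1-/- mouse 1 overlapped wild type, held the highest value of its group for 18 of 36 members, and had a mitosis median of -0.83 against -2.16 to -1.77 in the other 3 E2f1-/- livers. Without this mouse, 7 members were lower and 1 higher in E2f1-/- livers, while the calls over all genes were 3910, against 4234 with it. The SD was highest in the E2f1-/- group for 21 members, in the E2f2-labelled group for 6 and in wild type for 9. The median SD of members was 0.305 in E2f1-/-, 0.267 in E2f2-labelled and 0.296 in wild-type livers. Over all tested genes it was 0.282, 0.262 and 0.328, highest in wild type. The count for E2f1-/- mouse 1 and the counts by SD were not made over all tested genes. These member counts are therefore descriptions only. Among licensing members the median SD was 0.45 in E2f1-/- livers, 0.27 in E2f2-labelled livers and 0.28 in wild-type livers.

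The 48 other replication genes, which are not among the 42, were more evenly split by sign. Of 40 tested, 20 differences were negative and 20 positive in E2f1-/- livers, and 18 and 22 in E2f2-labelled livers. For members these were 24 and 12, and 25 and 11. In E2f1-/- livers 4 were called lower (10%, against 7.41% of all tested genes) and 3 higher (7.5%, against 13.2%), with a median of 0.01. In E2f2-labelled livers 6 were called lower (15%, against 7.58%) and 3 higher (7.5%, against 14.6%), with a median of 0.05. In E2f1-/- livers Pold4, a small subunit of polymerase delta, fell by 1.31 ± 0.33 and the histone chaperone Asf1b by 1.29 ± 0.31. Donson, a replisome component, fell by 0.69 ± 0.18, and Dbf4, which activates the Cdc7 kinase, was at least 1.38-fold lower, being well above background on no E2f1-/- array. Dbf4 passed the background filter through wild-type livers only, so its call is not support for a fall. The 3 that rose in E2f1-/- livers were Supt16 (0.67 ± 0.18), Shmt1 (0.63 ± 0.19) and Nasp (0.54 ± 0.15). In E2f2-labelled livers Chtf18, of an alternative clamp loader, fell by 2.10 ± 0.41, Pold4 by 1.78 ± 0.33 and Asf1b by 1.49 ± 0.31. Topbp1, Samhd1 and Donson fell by 0.84 ± 0.20, 0.76 ± 0.23 and 0.54 ± 0.18. Rnaseh2c and Rnaseh2a, subunits of ribonuclease H2, rose by 0.72 ± 0.20 and 0.58 ± 0.14.

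Some markers of other liver cell types were also called, and their counts are set against the shares of all tested genes. In E2f1-/- livers 7.41% of all were lower and 13.2% higher. In E2f2-labelled livers 7.58% were lower and 14.6% higher. With lists this short, a count of 1 is not read as a change of its cell type or family. Neutrophil markers were lower for 4 of 8 in E2f1-/- livers and 2 of 8 in E2f2-labelled livers, with summed signals of 10.1 to 76.2 in E2f1-/-, 17.3 to 117.9 in E2f2-labelled and 64.1 to 191.7 in wild-type livers. T and NK cell markers were lower for 0 of 9 tested in E2f1-/- livers and 4 of 9 in E2f2-labelled livers. Their sums were 27.6 to 47.7 in E2f1-/-, 26.2 to 45.4 in E2f2-labelled and 35.8 to 73.0 in wild-type livers. Cd8a, Klrb1c and Ncr1 of this list were not tested. Macrophage markers were lower for 2 of 12 and higher for 1 in E2f1-/- livers, and lower for 3 and higher for 1 in E2f2-labelled livers, with sums of 215.9 to 504.4 in E2f1-/-, 159.1 to 562.1 in E2f2-labelled and 133.8 to 356.3 in wild-type livers. Stellate cell markers were lower for 3 of 7 tested in each comparison, with sums of 8.20 to 15.6 in E2f1-/-, 5.86 to 8.36 in E2f2-labelled and 13.6 to 21.8 in wild-type livers. Hepatocyte markers were higher for 3 of 12 and lower for 0 in each comparison. Calls on the other lists in E2f1-/- livers were 1 higher of 6 tested B and plasma cell markers, 1 lower of 5 bile duct markers, 1 lower of 8 endothelial markers, and 1 higher and 2 lower of 7 erythroid markers. In E2f2-labelled livers they were 0 of 6, 1 lower of 5, 3 lower of 8, and 1 higher and 2 lower of 7. Of 16 tested genes of the E2F and retinoblastoma families, 3 were lower and 1 higher in E2f1-/- livers, and 1 was lower and 1 higher in E2f2-labelled livers. The part of these cell types in the replication gene values was not tested.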

How the data were processed

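Total liver RNA (50 ng per mouse, per the labels) was hybridised to 12 one-colour Agilent arrays. The submitters' processing notes name Agilent Feature Extraction 10.7.3.1. The intensity used here is the deposited processed signal, which per the file headers has the background subtracted and no log taken, with 1 mouse per array. The deposited series matrix holds log2 values whose columns share 1 median (3.84). How it was made: not given in the sources used here. It correlated with the scanner log2 signals at 0.9981 or more and was an alternative only.

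Control and outlier spots were left out, spots of a probe averaged, log2 signals set against each array's 75th percentile, and probes kept where 3 or more of a group's 4 arrays were well above background (28442 probes, 20576 genes, each by its brightest probe). Names came through RefSeq accessions for 28026 probes, a current symbol for 3418, a synonym for 295 and the file's name for 23942. limma 3.58.1 in R 4.3.3 fitted all 12 arrays without covariates, with Benjamini-Hochberg adjustment over all genes, and the number of arrays limits the precision. Tested on simulated data of the E2f1-/- comparison, it recovered 90 of 100 genes changed by 2 and 99 of 100 changed by 4 on the log2 scale. Smaller changes and slide effects were not simulated. The simulation therefore does not show how often changes as small as those of most members would be called. The labels do not say which mice shared a cage or litter, so p-values measure the spread between these mice.

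Same-numbered arrays share a slide and scan. Of 12 same-number pairs of arrays, 10 deviated together with a correlation over 0.1 (range 0.0413 to 0.424). Of 12 arrays, 11 deviated most like the arrays of their own number in the other groups. Arrays of a slide thus shared some deviation, which the reported fit does not remove. The labels do not say that the numbers pair mice, so the slide was an alternative block only. No 2 arrays correlated above 0.9884.

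Members and lists were chosen with earlier results of these data known. Named in full are members called in any comparison, members whose probes disagree, the brightest member of each role without such a member, and up to 6 other replication genes per direction, of which 1 that was higher in E2f2-labelled livers is not reported here. Alternatives changed the background correction, scaling, filter, probe rule, slide block, array weights, arrays fitted and mice left out. Positions of probes are mm9 as in the files. Promoters are RefSeq's, GRCm38, read with Python 3.11.15 and pandas 2.3.3, and figures used matplotlib 3.10.9.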

Additional observations from a re-analysis of the deposited data

Results flagged for a closer look

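The level of each of the 36 tested members and of E2f1, E2f2, Mki67 and Top2a was examined for a liver standing apart in each group of 4, 120 groups in all. In 2 of them 1 liver was farther from the rest than Dixon's limit for the gap over the range, where chance would flag about 1 in 20 groups. Prim1 read -0.12 in E2f1-/- mouse 4, and the other 3 E2f1-/- livers read 0.42 to 0.52. Uhrf1 read -1.16 in E2f1-/- mouse 1, and the other 3 read -2.11 to -1.97. Prim1 was not called, and Uhrf1 was called with and without that mouse. For Mcm10 the gap between wild-type mouse 3 and the other wild-type mice was 0.798 of their range, under that limit.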

How the results depend on the processing

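Across 23 alternatives, the calls kept in all of them were Mcm10 and Uhrf1 in both comparisons and Mcm2 and Mcm6 in E2f2-labelled livers. The number of members called in E2f1-/- livers, 6 as reported, was 3 with no filter on dim probes and 3 with only the 8 arrays compared, while the calls over all genes, 4234 as reported, were 2789 and 3012. It ranged over 3 to 8 with 1 mouse left out, and the lowest count, 1 higher and 2 lower, came without wild-type mouse 2 (2538 calls over all genes). In E2f2-labelled livers, 8 as reported, it was 13 with array weights (6527 calls over all genes, against 4565 as reported) and 5 to 10 with 1 mouse left out, again lowest without wild-type mouse 2 (2754 over all genes). The median difference of members was -0.12 in E2f1-/- and -0.11 in E2f2-labelled livers with normexp background correction. With 1 mouse left out it ranged over -0.29 to -0.10 in E2f1-/- livers, highest without E2f1-/- mouse 4, and over -0.30 to -0.20 in E2f2-labelled livers. The causes of these moves were not tested. With the slide as a replicate block, 9 members were called in E2f1-/- livers, 12 in E2f2-labelled livers and 0 between the 2. For E2f2-labelled minus E2f1-/- livers the count was 0 under every alternative, and the median was -0.12 to -0.03 with 1 mouse left out. Further settings were added after seeing the data. Without Mcm10 the counts were 5 and 7. With its second probe, Mcm3 differed by 0.041 in E2f1-/- livers (adjusted p = 0.942), by -1.24 in E2f2-labelled livers (adjusted p = 0.0111) and by -1.28 between the 2 (adjusted p = 0.0487), reversing the sign of the first and the last. Signal over background limits the 6 members not tested and dim ones such as Chaf1a.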
